A study of Mus musculus with 2 samples.

Results

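The transcripts of 10 genes of the p53 pathway were followed across the 11 cell types and both libraries of a single-cell RNA sequencing experiment on colitis-associated colon tumors (CACs) of mice. The genes were taken as a list by name, with no threshold on their values. They are Trp53, Mdm2, Cdkn1a, Ccng1, Bax, Bbc3, Trp53inp1, Phlda3, Sesn2 and Zmat3, and all 10 were found among the 32291 genes of the table. Trp53, which encodes p53, and Mdm2, which encodes its inhibitor, lie upstream of the miR-34a gene, whereas the other 8 are themselves induced by p53 and lie beside Mir34a rather than above it. A group name of genes upstream of miR-34a therefore describes mainly the first pair, although the product of Ccng1 also acts on Mdm2.

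The mice of both groups carried floxed Mir34a alleles. The group labelled Mir34a_F/F had these alleles alone, and in the group labelled Mir34a_Mye_KO they were combined with LysM-Cre, a Cre recombinase driven from the Lyz2 gene that acts in the myeloid lineage, and not in epithelial or lymphoid cells. All animals received azoxymethane (AOM, 10 mg/kg), starting at 6 to 10 weeks of age, and cycles of dextran sodium sulfate (DSS) in the drinking water, at 2.5% and in cycle 3 at 2%, and were sacrificed on day 110. From 3 mice per genotype, 6 to 8 CACs were pooled into 1 library. Cells were not assigned to mice, so no difference between the genotypes could be tested, and the libraries are referred to by their labels.

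p53 is a transcription factor that is stabilised by DNA damage and other stress. It binds response elements near its target genes, which arrest the cell cycle, trigger apoptosis, repair DNA or adjust metabolism, and it also induces the miR-34a gene. Among its targets is Mdm2, a ubiquitin ligase that marks p53 for degradation and closes a negative feedback loop. Since p53 is controlled mainly at the protein level, the mRNA of Trp53 does not report its activity, for which transcripts of targets such as Cdkn1a are commonly used. In colitis-associated cancer of patients, loss of p53 is known as an early event.

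The deleted gene encodes a short RNA that pairs with mRNAs through its seed. The mature miR-34a-5p comes from the plus strand at chr4:150068473-150068494 (RefSeq, GRCm38.p6). It is shown with its seed, bases 2 to 8, in capitals, because a match to this stretch was searched in the 10 mRNAs. A complementary match, CACTGCC, was searched on the sense strand of the longest annotated 3′ UTR of each gene (GENCODE M21). Of the 10 genes, 1 had a match. It lies at base 70 of the 227-base 3′ UTR of Bax and is shown with the match in capitals. Among 21272 genes, 13.9% had a match, and among those with a 3′ UTR under 500 bases 2.87%. A match does not show that the mRNA is bound. Shorter matches, other 3′ UTRs of a gene and coding sequence were not searched, so the lack of a match does not show that pairing is absent.
miR-34a-5p: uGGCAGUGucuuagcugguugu
Bax site: tgaggcctccCACTGCCttgga

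Promoter windows from 250 bases before to 50 after the start site (RefSeq, GRCm38.p6) were given for 8 of the 10 genes, in 11 windows. They were searched for the p53 response element, which has 2 arms of 10 bases with up to 13 bases between them and reads the same on both strands. Of 32841 windows of this kind, 24 (0.0731%) held it without a mismatch and 359 (1.09%) with at most 1. Among the members it was found without a mismatch for Cdkn1a (chr17:29090729-29091028, plus strand), 73 to 42 bases before the start, with 12 bases between the arms. A further Cdkn1a window (chr17:29093519-29093818) held it with 5 mismatches at best. With 1 mismatch it was found for Bax (chr7:45466849-45467148, minus strand), 212 to 192 bases before the start, and for Ccng1 (chr11:40755237-40755536, minus strand), 195 to 176 bases before it. The 3 windows with at most 1 mismatch are shown in the direction of transcription, with the arms in capitals, since their genes differed between the libraries in opposite directions. The letters alone do not show binding.
Cdkn1a: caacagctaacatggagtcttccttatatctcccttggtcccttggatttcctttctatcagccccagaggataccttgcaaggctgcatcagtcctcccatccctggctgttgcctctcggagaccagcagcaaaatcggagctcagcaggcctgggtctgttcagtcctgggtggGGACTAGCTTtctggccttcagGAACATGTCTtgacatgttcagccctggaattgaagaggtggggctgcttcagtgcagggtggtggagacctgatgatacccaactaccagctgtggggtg
Bax: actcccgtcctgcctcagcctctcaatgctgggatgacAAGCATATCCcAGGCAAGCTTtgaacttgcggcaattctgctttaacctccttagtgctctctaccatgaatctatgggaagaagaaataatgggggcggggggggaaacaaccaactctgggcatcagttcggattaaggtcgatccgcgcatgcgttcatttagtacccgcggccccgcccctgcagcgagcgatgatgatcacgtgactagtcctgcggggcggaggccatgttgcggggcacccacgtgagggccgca
Ccng1: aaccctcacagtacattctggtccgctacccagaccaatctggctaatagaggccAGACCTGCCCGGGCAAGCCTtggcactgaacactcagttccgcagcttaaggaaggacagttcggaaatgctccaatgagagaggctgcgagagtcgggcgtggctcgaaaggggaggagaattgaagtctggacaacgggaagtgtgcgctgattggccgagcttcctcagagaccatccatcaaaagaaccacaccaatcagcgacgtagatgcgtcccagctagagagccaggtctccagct

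The library labelled Mir34a_F/F held 20312 cells with a median of 4787 UMIs, which are molecules counted once by their unique identifiers, and the library labelled Mir34a_Mye_KO held 18571 cells with a median of 7716. The latter was deeper in 11 of 11 cell types, with median UMIs 1.11 times higher in endothelial cells and up to 5.69 times in B cells, and its median mitochondrial share was higher in 11 of 11. A level is given throughout as the mean over cells of UMIs scaled to 10000 for each cell, which takes out the total depth, and levels are compared between libraries as the log2 ratio of Mir34a_Mye_KO over Mir34a_F/F. A variant of the level on reduced totals leaves out of a cell's total the mRNAs of immunoglobulins, of mitochondria and of genes like ribosomal RNA. The intervals are 95% intervals that cover counting error only, not the variation between mice. For mir34apri, a feature named after the Mir34a primary transcript, 133 UMIs were counted in macrophages of the library labelled Mir34a_F/F and 462 in those labelled Mir34a_Mye_KO, with a log2 ratio of 0.62 (0.21 to 1.04). The sequence this feature covers is not given in the sources used here. A feature named for Cre alone had 0 UMIs in every cell type of both libraries. A feature joining Cre and Lyz2 had 451 and 172 UMIs there, and Lyz2 itself was lower with a log2 ratio of -1.96 (-2.09 to -1.83). As background, a Cre inserted into Lyz2 disrupts the allele that carries it. These features do not settle the genotype of a library, and the directions below follow the labels. The fixed markers of each cell type were highest in that type, except 1 of 4 in basophils. As a measure of free RNA, 6 epithelial mRNAs such as Epcam and Krt8 were read in the other cell types, where they were at a median of 19.6% to 77.4% of their epithelial level. Scaled by these shares, the epithelial level of a member came to a median of 34.6% of its level in another cell type, and to over 50% in 56 of 191 values.

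Of the regulators, Trp53 (chr11:69580359-69591873, plus strand, GENCODE M21 on GRCm38, as are all gene positions) had UMIs in every cell type, at low levels. In the library labelled Mir34a_F/F the level was 0.782 in endothelial cells, 0.617 in mast cells, 0.585 in T cells, 0.528 in epithelial cells, 0.510 in B cells, 0.501 in dendritic cells, 0.462 in macrophages, 0.371 in fibroblasts, 0.356 in basophils, 0.289 in neutrophils and 0.150 in erythroid cells. In the library labelled Mir34a_Mye_KO it was 0.565 in T cells, 0.558 in fibroblasts, 0.546 in endothelial cells, 0.543 in mast cells, 0.431 in erythroid cells, 0.422 in dendritic cells, 0.404 in epithelial cells, 0.379 in macrophages, 0.341 in basophils, 0.303 in B cells and 0.214 in neutrophils. Among the 7 larger cell types, which are all but basophils, fibroblasts, endothelial and erythroid cells, neutrophils were thus lowest in both libraries. Their interval (0.228 to 0.361 and 0.178 to 0.256) lay below that of the next type in both. The other neighbours in this order overlapped in their intervals in the library labelled Mir34a_F/F. In neutrophils the epithelial share of free RNA corresponded to 71.3% and 64.4% of the measured level, and in erythroid cells to 210.4% and 72.6%, so that the erythroid level was not above this background in the library labelled Mir34a_F/F.

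Mdm2 (chr10:117688875-117710758, minus strand), the negative regulator of p53 and one of its targets, was highest in macrophages. Its level there was 2.36 (2.26 to 2.45) in the library labelled Mir34a_F/F and 2.32 (2.25 to 2.40) in the library labelled Mir34a_Mye_KO. Neutrophils followed with 1.34 and 1.34, and basophils with 1.31 and 1.27. The macrophage interval lay above that of every other cell type in both libraries, whereas neutrophils and basophils overlapped. The remaining types lay between 0.615 and 1.04 in the library labelled Mir34a_F/F and between 0.206 and 0.978 in the other, with epithelial cells at 0.707 and 0.631. In macrophages, free RNA of epithelial cells corresponded to 8.32% and 7.86% of the Mdm2 level, so that the macrophage level stood well above this background.

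**Figure D1:**
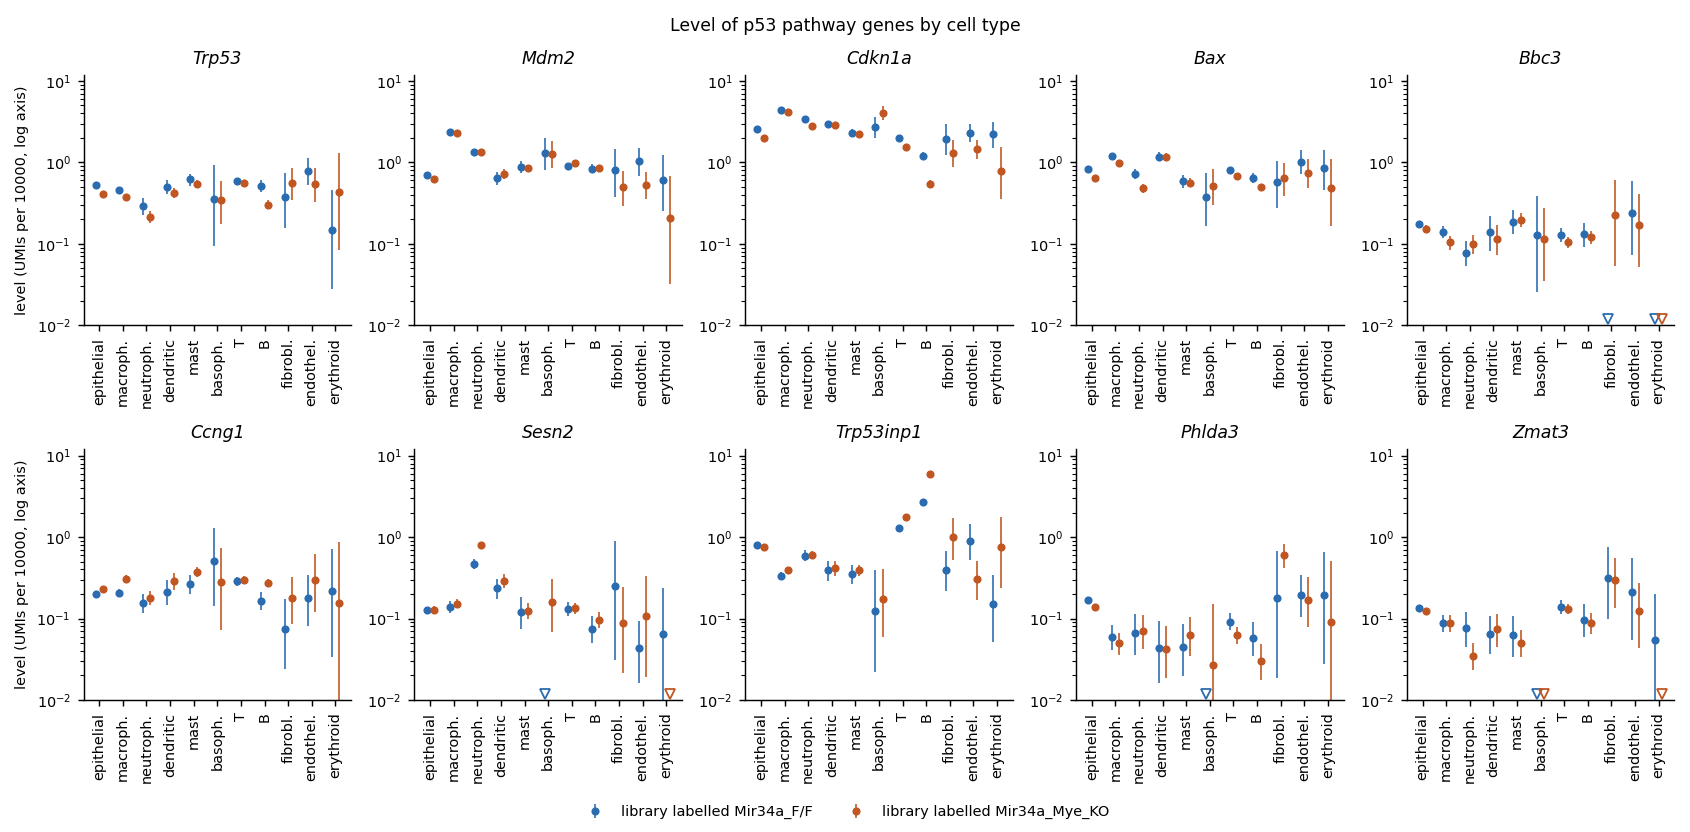
Levels of the 10 genes, 1 panel each, as mean UMIs per 10000 UMIs of a cell on a log axis, for the 11 cell types in both libraries. Points are levels, bars are 95% counting intervals and open triangles mark 0 UMIs. Mdm2 and Cdkn1a were highest in macrophages in both libraries (2.36 and 2.32, 4.41 and 4.21), Sesn2 in neutrophils (0.469 and 0.799) and Trp53inp1 in B cells (2.73 and 6.01).

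Of the genes of the cell cycle, Cdkn1a (chr17:29090976-29100727, plus strand) encodes p21, an inhibitor of cyclin-dependent kinases that holds cells in G1. Its level in the library labelled Mir34a_F/F was 4.41 in macrophages, 3.45 in neutrophils, 3.00 in dendritic cells, 2.72 in basophils, 2.60 in epithelial cells, 2.32 in mast cells and in endothelial cells, 2.22 in erythroid cells, 2.01 in T cells, 1.94 in fibroblasts and 1.19 in B cells. In the library labelled Mir34a_Mye_KO it was 4.21 in macrophages, 4.07 in basophils, 2.91 in dendritic cells, 2.80 in neutrophils, 2.23 in mast cells, 2.01 in epithelial cells, 1.53 in T cells, 1.47 in endothelial cells, 1.31 in fibroblasts, 0.791 in erythroid cells and 0.542 in B cells. Macrophages were thus highest and B cells lowest in both. In the library labelled Mir34a_Mye_KO, the interval of basophils (3.30 to 4.97) overlapped that of macrophages (4.12 to 4.30), and that of erythroid cells (0.352 to 1.53) overlapped that of B cells (0.487 to 0.602). For the library labelled Mir34a_F/F, macrophages stood apart and B cells (1.06 to 1.33) overlapped fibroblasts (1.22 to 2.94). The gene model overlaps AC167363.2 on the opposite strand, which was not among the genes of the table.

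Ccng1 (chr11:40748552-40755311, minus strand) encodes cyclin G1, which recruits a phosphatase to Mdm2. It was found at low and more even levels. Among the 7 larger types it ranged from 0.155 in neutrophils to 0.288 in T cells in the library labelled Mir34a_F/F, and from 0.181 in neutrophils to 0.371 in mast cells in the other. T cells (0.254 to 0.325) and mast cells (0.202 to 0.343) overlapped in their intervals in the first. In the second, mast cells (0.322 to 0.425) overlapped macrophages (0.279 to 0.345), which were next at 0.310.

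Of the genes of cell death, Bax (chr7:45461697-45466898, minus strand) encodes a pore-forming protein of the outer mitochondrial membrane. Its level was highest in macrophages (1.19) and dendritic cells (1.18) in the library labelled Mir34a_F/F and in dendritic cells (1.18) and macrophages (0.970) in the library labelled Mir34a_Mye_KO. These types overlapped in the first library and were apart in the second (1.07 to 1.29 and 0.918 to 1.03). Epithelial cells had 0.831 and 0.648, T cells 0.802 and 0.685, neutrophils 0.719 and 0.482, B cells 0.645 and 0.50, and mast cells 0.587 and 0.562. The gene model shares bases with Gm45808 on the same strand, which was not among the genes of the table.

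Bbc3 (chr7:16308393-16318205, plus strand), which encodes the BH3-only protein PUMA, was low. In the 7 larger types it lay between 0.0778 in neutrophils and 0.187 in mast cells in the library labelled Mir34a_F/F, and between 0.0999 and 0.196 in the same types of the other library. Fibroblasts of the library labelled Mir34a_F/F had 0 UMIs, which allows a level of up to 0.207 (3 UMIs), and those of the library labelled Mir34a_Mye_KO had 8 UMIs at a level of 0.224. Erythroid cells had 0 UMIs in both, which allows up to 0.183 and 0.424. At this depth no difference between these small groups was detectable for Bbc3.

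Trp53inp1 (chr4:11156431-11174379, plus strand), whose product promotes apoptosis and autophagy in the p53 response, was highest in lymphocytes. Its level was 2.73 (2.60 to 2.87) in B cells and 1.29 (1.21 to 1.37) in T cells of the library labelled Mir34a_F/F, and 6.01 (5.88 to 6.13) and 1.76 (1.69 to 1.83) in those labelled Mir34a_Mye_KO. Among the larger types, epithelial cells followed with 0.802 and 0.745 and neutrophils with 0.592 and 0.605. Dendritic cells (0.391 and 0.416), mast cells (0.350 and 0.391) and macrophages (0.330 and 0.389) overlapped one another in both libraries. B cells were highest in both, above T cells beyond the counting intervals.

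Phlda3 (chr1:135766119-135769136, plus strand), whose product competes with AKT for membrane lipids and thereby represses AKT signalling, was below 0.1 in all but 1 of the 7 larger types in both libraries. The exception was epithelial cells, with 0.170 (0.157 to 0.184) and 0.137 (0.125 to 0.150). Endothelial cells had 0.196 and 0.170 on 16 and 19 UMIs. In fibroblasts the level was 0.178 on 4 UMIs in the library labelled Mir34a_F/F and 0.599 on 51 UMIs in the library labelled Mir34a_Mye_KO, with a log2 ratio of 1.75 (-0.27 to 5.06) that included 0.

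Sesn2 (chr4:132492032-132510501, minus strand) encodes sestrin 2, a leucine sensor that restrains mTORC1 and is induced by p53 and by other stress pathways. It was highest in neutrophils, with 0.469 (0.405 to 0.541) and 0.799 (0.732 to 0.871). Dendritic cells were next among the larger types with 0.235 (0.176 to 0.308) and 0.290 (0.234 to 0.355), below neutrophils beyond the intervals. The remaining larger types lay between 0.0738 and 0.138 and between 0.0956 and 0.152. Gm12981 overlaps the gene model on the same strand and is in the table, so reads in the shared stretch may not all be counted for Sesn2. Zmat3 (chr3:32334792-32366014, minus strand), which encodes a zinc finger protein that binds RNA and regulates splicing, reached 0.1 in the larger types only in T cells (0.138 and 0.131) and epithelial cells (0.133 and 0.123), whose intervals overlapped. Fibroblasts had 0.313 and 0.293, on 10 and 18 UMIs.

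The study asked what loss of Mir34a in myeloid cells does to CACs, and for the p53 pathway the comparison is that of the libraries within each cell type. Few members differed by 1.5 times or more. Of 110 pairs of gene and cell type, 90 had a level of at least 0.1 in either library, 57 of them in the 7 larger types. Of these 57, 4 were higher by 1.5 times or more in the library labelled Mir34a_Mye_KO, namely Trp53inp1 and Ccng1 in B cells, Ccng1 in macrophages and Sesn2 in neutrophils. Another 2 were lower, namely Cdkn1a and Trp53 in B cells. In epithelial cells 0 of 10 members were past this fold in either direction, where 1.51% of all genes were higher and 4.49% lower. In macrophages 1 of 8 was higher and 0 were lower, against 1.83% and 3.81% of all genes. In neutrophils 1 of 7 was higher and 0 lower, against 5.55% and 13.5%. In dendritic cells it was 0 of 8 both ways, against 5.86% and 8.07%, in mast cells 0 of 8, against 4.09% and 16.7%, and in T cells 0 of 9, against 1.62% and 8.87%. In B cells 2 of 7 were higher and 2 lower, against 4.24% and 27.2%. With so few members, 1 gene makes the difference between these shares and none. The median log2 ratio of the members was -0.18 in epithelial cells, where that of all genes tested was -0.22. It was -0.04 in macrophages (all genes -0.06), -0.00 in neutrophils (-0.15), 0.04 in dendritic cells (0.00), -0.01 in mast cells (-0.13), -0.05 in T cells (-0.09) and -0.13 in B cells (-0.34).

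**Figure D2:**
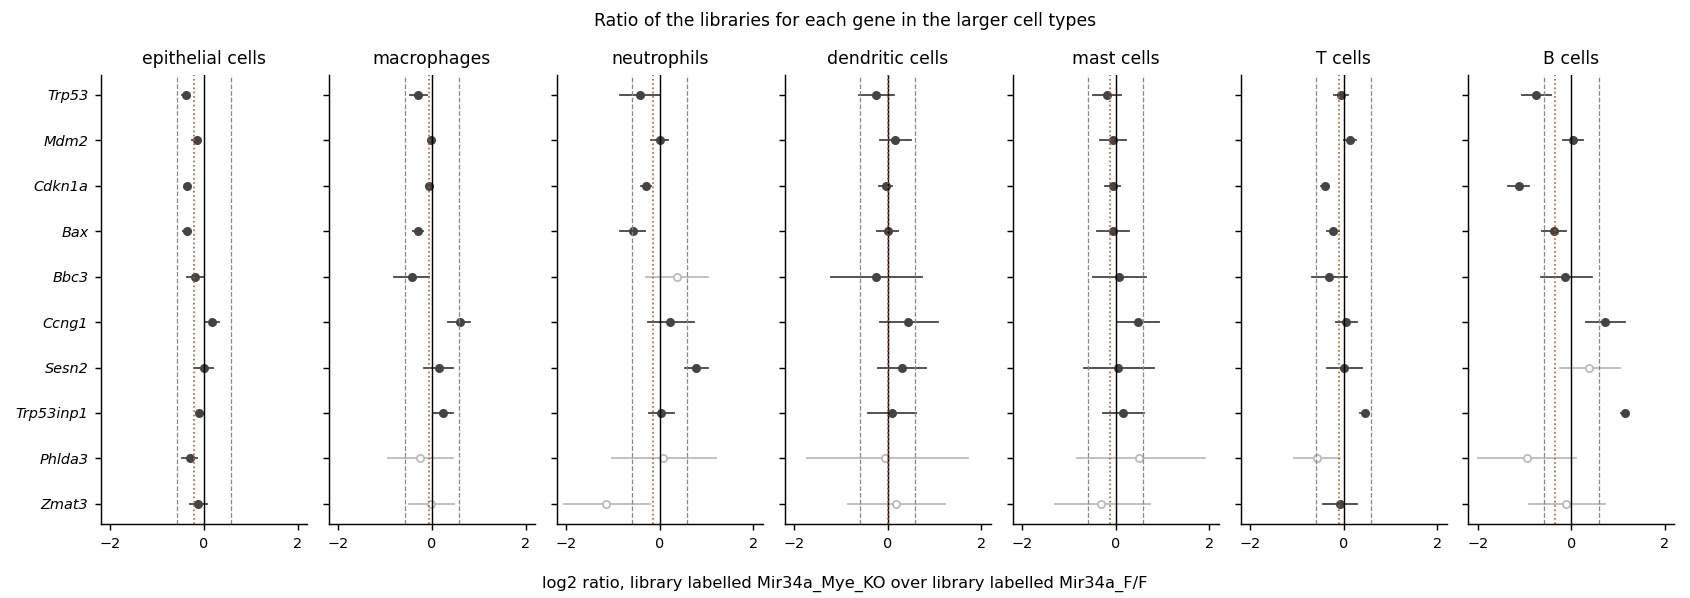
Log2 ratio of the level in the library labelled Mir34a_Mye_KO over that labelled Mir34a_F/F for the 10 genes, 1 panel for each of the 7 larger cell types. Bars are 95% counting intervals, filled points have a level of at least 0.1 in either library, open grey points lie below it, dashed lines mark 1.5-fold and the dotted line marks the median of all genes tested. Beyond 1.5-fold, filled points were Ccng1 in macrophages (0.59), Sesn2 in neutrophils (0.77) and Ccng1 (0.72), Trp53inp1 (1.14), Trp53 (-0.75) and Cdkn1a (-1.13) in B cells.

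The members did not share a direction. Cdkn1a was lower in the library labelled Mir34a_Mye_KO in 10 of 11 cell types, with an interval below 0 in 7 of them. Trp53 and Bax were lower in 9 of 11 each, with 3 and 5 intervals below 0, and the median of all genes was itself below 0 in 9 of 11 cell types. By contrast, Ccng1 and Trp53inp1 were higher in 9 of 11 each, with 4 and 5 intervals above 0, and for Trp53inp1 2 intervals lay below 0. Mdm2 was lower in 8 of 11 with 2 intervals below 0 and 1 above. The cell types of a library share their free RNA and their processing, so these counts are not independent. How many of all genes reach such counts is not given here. The sign held under every alternative tried in 5 of 7 larger types for Bax and Trp53inp1, in 4 of 7 for Cdkn1a and Ccng1, in 3 of 7 for Trp53 and in 1 of 7 for Mdm2. A pseudocount of 1, added to both levels, was among the alternatives and cannot change a sign. Ccng1 and Cdkn1a are both inducible by p53, and in macrophages and B cells their ratios had opposite signs.

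How far a direction depended on the processing was examined for each gene and larger cell type. Thinning each cell to 1000 UMIs was a single random draw that left fewer UMIs, and the counting error of its ratios is not given here. Some alternatives moved the median of all genes as well. Subtracting free RNA moved it by 0.40 in neutrophils, 0.32 in mast cells, 0.27 in B cells, 0.26 in T cells and 0.12 in dendritic cells, and the reduced totals moved it by 0.32 in B cells and 0.11 in macrophages. Across the alternatives tried, Trp53 stayed lower in epithelial cells (log2 ratio -0.71 to -0.12), macrophages (-0.29 to -0.08) and B cells (-1.08 to -0.21), but the ratio turned to 0.47 in neutrophils and 0.14 in mast cells when cells were thinned to 1000 UMIs, and in T cells it had the other sign under 4 of 8 alternatives, up to 0.19 with free RNA subtracted. Cdkn1a stayed lower in epithelial cells (-0.41 to -0.12), neutrophils (-0.30 to -0.15), T cells (-0.40 to -0.17) and B cells (-1.34 to -0.51). In macrophages, where it was -0.07 (-0.12 to -0.02), it turned to 0.20 with UMIs summed over cells and to 0.02 on the reduced totals. Bax kept a negative ratio in epithelial cells (-0.66 to -0.07), macrophages (-0.38 to -0.16), neutrophils (-0.60 to -0.21), T cells (-0.25 to -0.01) and B cells (-0.40 to -0.01). In T cells it was -0.01 with thinning and with free RNA subtracted. In B cells it was -0.01 on the reduced totals, -0.03 with the median of all genes subtracted and -0.05 with free RNA subtracted. Little of the Bax difference in T and B cells was thus left under these settings. Ccng1 stayed higher in macrophages (0.12 to 0.81), dendritic cells (0.09 to 0.60), mast cells (0.11 to 0.68) and B cells (0.13 to 1.16), while in epithelial cells it turned to -0.13 with UMIs summed over cells. The sign of Mdm2 held under every alternative only in T cells (0.06 to 0.32), where the level was 0.894 and 0.978.

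B cells held 4 of the 6 pairs past 1.5-fold, and with 27.2% of all genes lower by this fold, the 2 of 7 members that were lower are near the share of all genes. Trp53inp1 had a level of 2.73 in the library labelled Mir34a_F/F and 6.01 in the library labelled Mir34a_Mye_KO, a log2 ratio of 1.14 (1.06 to 1.21), and Ccng1 had 0.166 and 0.273, a log2 ratio of 0.72 (0.32 to 1.15). Cdkn1a had 1.19 and 0.542, a log2 ratio of -1.13 (-1.36 to -0.91), and Trp53 had 0.510 and 0.303, a log2 ratio of -0.75 (-1.05 to -0.44). Bax was lower by less, with 0.645 and 0.50 (-0.37, -0.62 to -0.11), and its ratio was -0.01 on the reduced totals. Mdm2 stood at 0.840 and 0.859 (0.03, -0.18 to 0.25). The makeup of the cells labelled B cells moved along with these values. Jchain, a marker of cells that secrete antibody, had a level of 120.1 and 285, and Mzb1 had 4.73 and 11.1, whereas Ms4a1, a marker of B cells before that stage, had 1.35 and 1.29. Immunoglobulin mRNAs made up 20% or more of the UMIs in 262 of 943 B cells of the library labelled Mir34a_F/F (27.8%, exact binomial interval 24.9 to 30.8) and in 530 of 926 of the other (57.2%, 54.0 to 60.4). This limit was set after seeing the data.

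Trp53inp1 followed the immunoglobulin class within each library. Its level in the library labelled Mir34a_F/F was 7.19 in the cells with 20% or more and 1.02 in the others, a log2 ratio of 2.82 (2.61 to 3.05). For the library labelled Mir34a_Mye_KO it was 9.44 and 1.41, a log2 ratio of 2.74 (2.57 to 2.92). The class with more immunoglobulin was thus higher by nearly the same ratio in both. The median of all genes between the classes was -1.05 and -1.02. On the reduced totals it was -0.17 and -0.19, and Trp53inp1 was then higher by 3.69 (3.48 to 3.91) and 3.45 (3.27 to 3.63). On these totals Ccng1 (1.63 and 1.41), Bbc3 (0.85 and 1.5) and Bax (0.42 and 0.38) were also higher in the class with more immunoglobulin, with intervals above 0 in both libraries. Trp53 (-0.26 and -0.19), Mdm2 (-0.02 and 0.08) and Cdkn1a (-0.10 and -0.19) had intervals that included 0.

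Between the libraries, the difference of Trp53inp1 was smaller within the classes than over all B cells. It was 0.47 (0.20 to 0.75) below 20% immunoglobulin and 0.39 (0.33 to 0.46) at or above it, against 1.14 over all. With both classes of the library labelled Mir34a_Mye_KO weighted as in the library labelled Mir34a_F/F, it was 0.41. For Cdkn1a, in contrast, the difference was nearly as large within the classes, at -0.88 (-1.18 to -0.58) and -0.91 (-1.21 to -0.61). Trp53 lay at -0.51 (-0.92 to -0.11) and -0.37 (-0.84 to 0.13), and it was no longer past 1.5-fold at one mix of the classes (-0.49), on the reduced totals (-0.44) or with the median of all genes subtracted (-0.41). Ccng1 had intervals that included 0 in both classes (0.59, -0.09 to 1.30, and 0.43, -0.04 to 0.93), and at one mix of the classes its ratio was 0.52 and no longer past 1.5-fold. Mdm2, at 0.03 over all B cells, stood at 0.18 (-0.11 to 0.48) and at 0.39 (0.15 to 0.63) in the class with more immunoglobulin. Free RNA of epithelial cells corresponded to 9.18% and 2.43% of the B cell level of Trp53inp1, and to 68.4% and 72.6% of that of Cdkn1a. For Cdkn1a this background was itself lower in the library labelled Mir34a_Mye_KO, at 0.394 against 0.813. With it subtracted, the ratio over all B cells was -1.34. The part of free RNA within the classes was not tested.

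**Figure D3:**
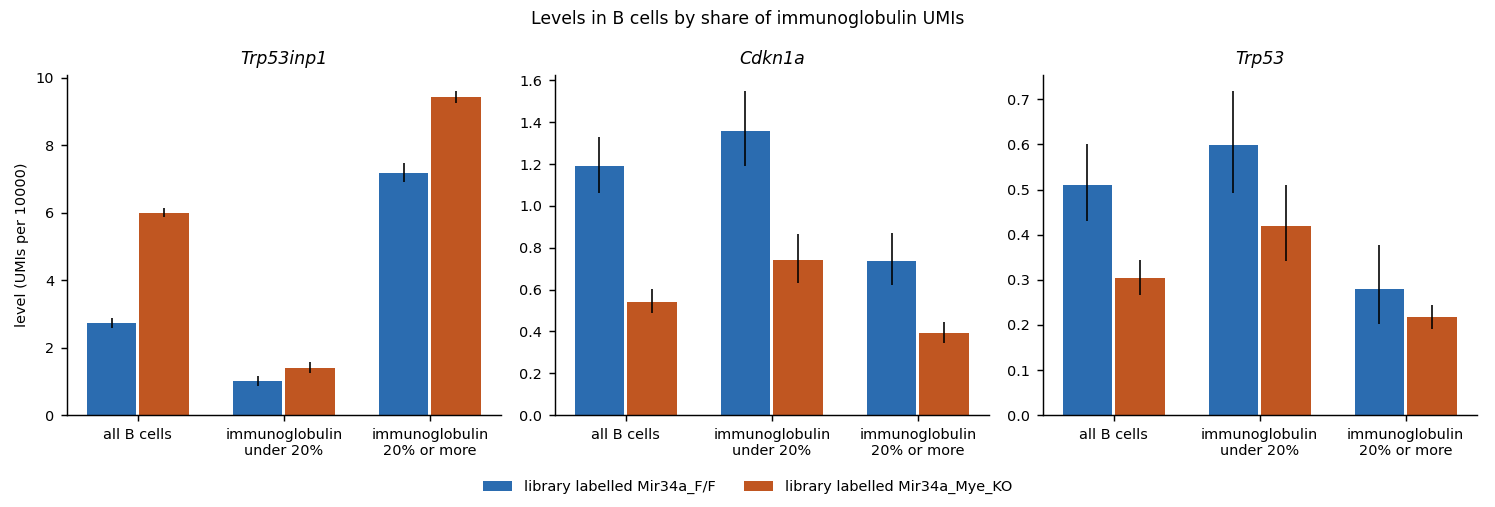
Levels of Trp53inp1, Cdkn1a and Trp53 (mean UMIs per 10000 UMIs of a cell) in all B cells and in those with under 20% and with 20% or more immunoglobulin UMIs, in both libraries. Bars start at 0 and error bars are 95% counting intervals. Trp53inp1 stood at 1.02 and 1.41 in the class with less immunoglobulin and at 7.19 and 9.44 in the other. Cdkn1a and Trp53 were lower in the class with more, as was the median of all genes (log2 ratio -1.05 and -1.02). On the reduced totals the intervals of Cdkn1a and Trp53 included 0.

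In T cells, which lie outside the reach of LysM-Cre, Trp53inp1 was also higher in the library labelled Mir34a_Mye_KO, at 1.76 against 1.29, a log2 ratio of 0.45 (0.35 to 0.55) that stayed between 0.27 and 0.63 under the alternatives. Cdkn1a was lower, at 1.53 against 2.01 (-0.39, -0.48 to -0.30), and so was Bax, at 0.685 against 0.802 (-0.23, -0.36 to -0.10). In the libraries labelled Mir34a_F/F and Mir34a_Mye_KO, free RNA of epithelial cells corresponded to 45.6% and 36.2% of the Cdkn1a level. For Bax it corresponded to 36.5% and 26.1%. With free RNA subtracted the ratio was -0.17 for Cdkn1a and -0.01 for Bax, so that almost none of the Bax difference was left. Trp53 showed 0.565 and 0.585, with an interval of -0.20 to 0.10. The directions of Trp53inp1 and Cdkn1a in T cells were thus those of B cells.

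Neutrophils, in which LysM-Cre acts, had the highest level of Sesn2. Its level was 0.469 in the library labelled Mir34a_F/F, on 250 UMIs, and 0.799 in the library labelled Mir34a_Mye_KO, on 712 UMIs, a log2 ratio of 0.77 (0.53 to 1.02). It stayed between 0.29 and 0.92 under the alternatives, and free RNA of epithelial cells corresponded to 10.6% and 5.42% of the level. Markers of neutrophils differed beside it, with levels of 3.72 and 6.13 for Csf3r, 1.76 and 2.58 for Cxcr2, 866 and 529 for S100a9 and 105 and 74.2 for Retnlg. The part of neutrophil makeup in the Sesn2 value was not tested. In the other larger types with a level of at least 0.1, the ratio of Sesn2 lay between -0.01 in epithelial cells and 0.30 in dendritic cells, with intervals that all included 0. Other members differed the other way in neutrophils. Bax was lower, at 0.482 against 0.719 (-0.58, -0.84 to -0.32), and so was Cdkn1a, at 2.80 against 3.45 (-0.30, -0.41 to -0.19). Mdm2 had the same level of 1.34 in both (-0.18 to 0.17), and Trp53inp1 had 0.592 and 0.605 (-0.24 to 0.31).

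In macrophages, the cell type with the highest levels of Mdm2 and Cdkn1a, those levels were close in the libraries. Mdm2 had a log2 ratio of -0.02 (-0.09 to 0.05) and Cdkn1a one of -0.07 (-0.12 to -0.02). Ccng1 was higher, at 0.310 against 0.206 (0.59, 0.35 to 0.82), which is just past 1.5-fold. It was not past it with UMIs summed over cells (0.21) or in cells under 25% mitochondrial UMIs (0.57). The same held with a pseudocount (0.12), which always shrinks ratios of low levels. Trp53inp1 was higher by less, at 0.389 against 0.330 (0.24, 0.02 to 0.46). Free RNA of epithelial cells corresponded to 67.5% of its level in the library labelled Mir34a_F/F and to 55.5% in the other. Across the alternatives its ratio lay between 0.06 and 0.69, the latter with free RNA subtracted. Lower were Bax, at 0.970 against 1.19 (-0.30, -0.41 to -0.19), Trp53, at 0.379 against 0.462 (-0.29, -0.47 to -0.10), and Bbc3, at 0.104 against 0.140 (-0.43, -0.80 to -0.06). Phlda3 and Zmat3 were below 0.1 in both libraries. The makeup of the macrophages by subtype was not analysed here except for Mrc1, and its part in these values was not tested.

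Macrophages with a UMI of Mrc1, a marker of M2-like polarization, were compared with the others within each library, using cells thinned to 1000 UMIs to sort them. There were 263 against 1930 cells in the library labelled Mir34a_F/F and 487 against 2108 in the other. Cdkn1a was lower in the cells with Mrc1 in both, at 4.01 against 4.48 (-0.16, -0.29 to -0.03) and at 3.66 against 4.34 (-0.24, -0.32 to -0.17). Bax was lower as well (-0.29, -0.55 to -0.04, and -0.20, -0.39 to -0.01). Mdm2 was lower in the cells with Mrc1 of the library labelled Mir34a_F/F (-0.23, -0.41 to -0.05) and not in the other (0.05, -0.06 to 0.16), a difference that was not tested. The median of the members with a level of at least 0.1 was -0.26 and -0.15, that of all genes 0.03 and -0.01. Between the libraries, Ccng1 was higher in macrophages without Mrc1 (0.65, 0.40 to 0.91), and with Mrc1 it stood at 0.18 (-0.46 to 0.87). In cells with Mrc1, Mdm2 (0.22, 0.03 to 0.42) and Trp53inp1 (0.63, 0.04 to 1.25) were higher and Trp53 (-0.44, -0.87 to -0.01) was lower. The other members had intervals there that included 0. Without Mrc1, these genes stood at -0.06 (-0.14 to 0.02) for Mdm2, 0.15 (-0.09 to 0.39) for Trp53inp1 and -0.27 (-0.47 to -0.06) for Trp53.

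In epithelial cells, which carry the tumor, 9 of 10 members were lower in the library labelled Mir34a_Mye_KO, 7 with an interval below 0, in a cell type where 12.3% of all genes were higher and the median over 9322 genes was -0.22. The share of members that were lower is thus near that of all genes, and the share of all genes with an interval below 0 is not given here. The largest were Trp53, at 0.404 against 0.528 (-0.39, -0.48 to -0.29), Cdkn1a, at 2.01 against 2.60 (-0.37, -0.41 to -0.33), Bax, at 0.648 against 0.831 (-0.36, -0.44 to -0.28), and Phlda3, at 0.137 against 0.170 (-0.31, -0.48 to -0.14). Bbc3 (-0.19, -0.37 to -0.01), Mdm2 (-0.16, -0.25 to -0.08) and Trp53inp1 (-0.11, -0.18 to -0.03) were lower by less. Ccng1 was higher, at 0.228 against 0.202 (0.17, 0.02 to 0.32), and Sesn2 and Zmat3 had intervals that included 0. The makeup of the epithelial cells by subtype was not analysed here except for Krt20, Lgr5 and genes of proliferation, and its part in these values was not tested. Epithelial cells of the library labelled Mir34a_Mye_KO had a median mitochondrial share of 18.3%, against 11.2%, and 38.8% of them lay at 25% or more, against 20%. On the reduced totals, the median of all genes moved by 0.27, to 0.04, and in the same step Mdm2 (0.11), Bbc3 (0.06), Sesn2 (0.23), Trp53inp1 (0.17) and Zmat3 (0.12) turned to higher while Trp53 (-0.12), Cdkn1a (-0.12), Bax (-0.07) and Phlda3 (-0.06) stayed lower.

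The mitochondrial share moved with the members within each library as well. Cells at 25% or more had lower levels of the members than cells under 10%, with log2 ratios of -1.04 to -0.11 in the library labelled Mir34a_F/F (2328 against 5410 cells) and of -1.35 to -0.72 in the other (3825 against 3550 cells). The interval lay below 0 for 9 of 10 members, all but Sesn2 (-0.11, -0.52 to 0.29), and for 10 of 10. The median of all genes was -0.69 and -0.85. On the reduced totals it was 0.07 and -0.05, and the median of the members was -0.05 and -0.37. On these totals 3 members had intervals above 0 and 2 below it in the library labelled Mir34a_F/F. In the other, 0 were above and 7 below. The share of all genes with such intervals is not given here. Among epithelial cells under 10%, Trp53 (-0.16, -0.31 to -0.01), Cdkn1a (-0.22, -0.29 to -0.14) and Bax (-0.14, -0.26 to -0.01) were lower in the library labelled Mir34a_Mye_KO. There, Ccng1 (0.39, 0.17 to 0.61), Sesn2 (0.52, 0.19 to 0.85) and Trp53inp1 (0.16, 0.03 to 0.28) were higher. The direction of Sesn2 was the opposite in cells between 10% and 25% (-0.31, -0.59 to -0.03) and at 25% or more (-0.43, -0.84 to -0.01). Cdkn1a was lower in each of the 3 classes, at -0.22, -0.30 (-0.36 to -0.24) and -0.36 (-0.46 to -0.27).

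**Figure D4:**
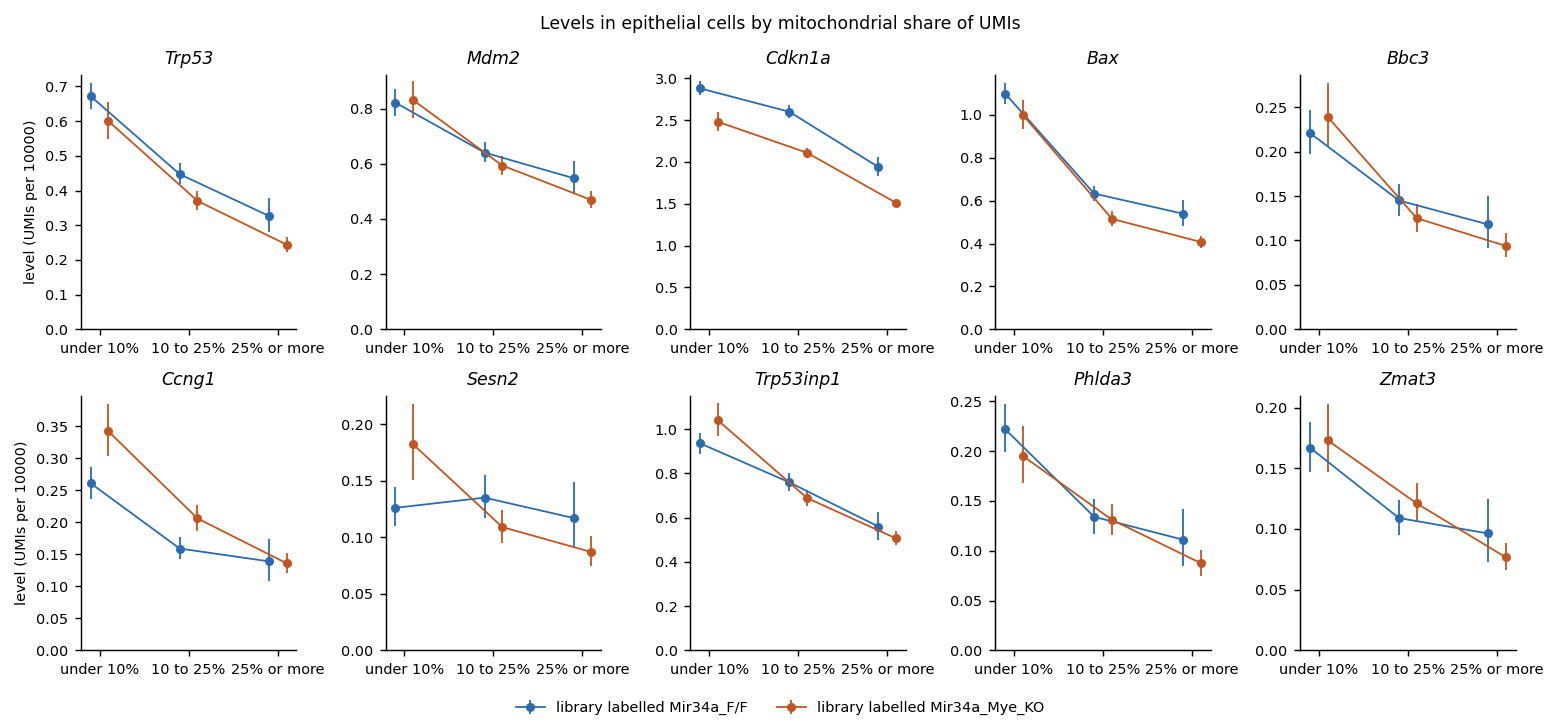
Levels of the members (mean UMIs per 10000 UMIs of a cell, linear axes from 0) in epithelial cells with a mitochondrial share under 10%, of 10% to 25% and of 25% or more, in both libraries. Points are levels, lines join the classes of a library and bars are 95% counting intervals. Trp53 went from 0.672 and 0.600 in the lowest class to 0.327 and 0.244 in the highest, and Cdkn1a from 2.88 and 2.48 to 1.94 and 1.51.

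Trp53 and Cdkn1a had opposite patterns along the crypt markers. Epithelial cells with a UMI of Krt20, a keratin of differentiated surface cells, in cells thinned to 1000 UMIs numbered 1264 against 9723 without in the library labelled Mir34a_F/F and 1041 against 8664 in the other. Cdkn1a was higher in cells with Krt20, at 3.23 against 2.47 (0.38, 0.31 to 0.45) and 2.63 against 1.92 (0.45, 0.37 to 0.54). Trp53 was lower in them, at 0.321 against 0.547 (-0.77, -1.0 to -0.54) and 0.201 against 0.429 (-1.09, -1.38 to -0.82). Cdkn1a was the member whose interval lay above 0, and 6 and 5 members had intervals below it, Trp53, Trp53inp1, Bax and Phlda3 in both libraries. The median of the members was -0.30 and -0.29, that of all genes -0.15 and -0.09. On the reduced totals the ratios were 0.34 and 0.34 for Cdkn1a and -0.72 and -1.13 for Trp53.

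Cells with a UMI of Lgr5, a marker of intestinal stem cells, numbered 538 and 471. Trp53 was higher in them, at 0.644 against 0.515 (0.32, 0.09 to 0.55) and 0.664 against 0.392 (0.76, 0.45 to 1.06), and so were Trp53inp1 (0.48 and 0.63), Bbc3 (0.62 and 0.71) and Mdm2 (0.39 and 0.44), each with intervals above 0. All genes had a median of 0.19 and 0.29, which stands beside these values. On the reduced totals that median was 0.07 and 0.10, on which the interval of Trp53 included 0 in the library labelled Mir34a_F/F (0.25, -0.02 to 0.51) and Trp53inp1 was higher in both (0.31, 0.12 to 0.49, and 0.40, 0.19 to 0.61). Mdm2 (0.24, -0.05 to 0.52) and Bbc3 (0.43, -0.10 to 0.92) then had intervals that included 0 in the library labelled Mir34a_Mye_KO. Cdkn1a was lower in cells with Lgr5 of the library labelled Mir34a_F/F (-0.34, -0.47 to -0.21), while in the other the interval included 0 (-0.11, -0.28 to 0.06), and on the reduced totals it was lower in both (-0.47 and -0.29).

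Cells with UMIs of at least 2 of 12 genes of proliferation, such as Mki67 and Top2a, numbered 880 and 625, against 8330 and 7375 with none. In cycling cells Cdkn1a was lower, at 2.12 against 2.62 (-0.30, -0.40 to -0.20) and at 1.60 against 2.02 (-0.34, -0.50 to -0.18). Trp53 was higher, at 0.620 against 0.508 (0.29, 0.10 to 0.46) and at 0.555 against 0.384 (0.53, 0.26 to 0.80), and so was Phlda3 (0.33, 0.00 to 0.64, and 0.76, 0.27 to 1.21). All genes had a median of 0.08 and 0.18. On the reduced totals Trp53 was at 0.27 (0.07 to 0.47) and 0.33 (0.05 to 0.60), Cdkn1a at -0.32 and -0.47, and Phlda3 at 0.30 (-0.04 to 0.63) and 0.58 (0.10 to 1.04), so that its interval included 0 in the library labelled Mir34a_F/F. Trp53inp1 was lower in cycling cells of the library labelled Mir34a_F/F, at 0.511 against 0.840 (-0.72, -0.92 to -0.52). In the other library it had 0.712 and 0.740 (-0.06, -0.34 to 0.22), and the difference between the libraries in this contrast was not tested.

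**Figure D5:**
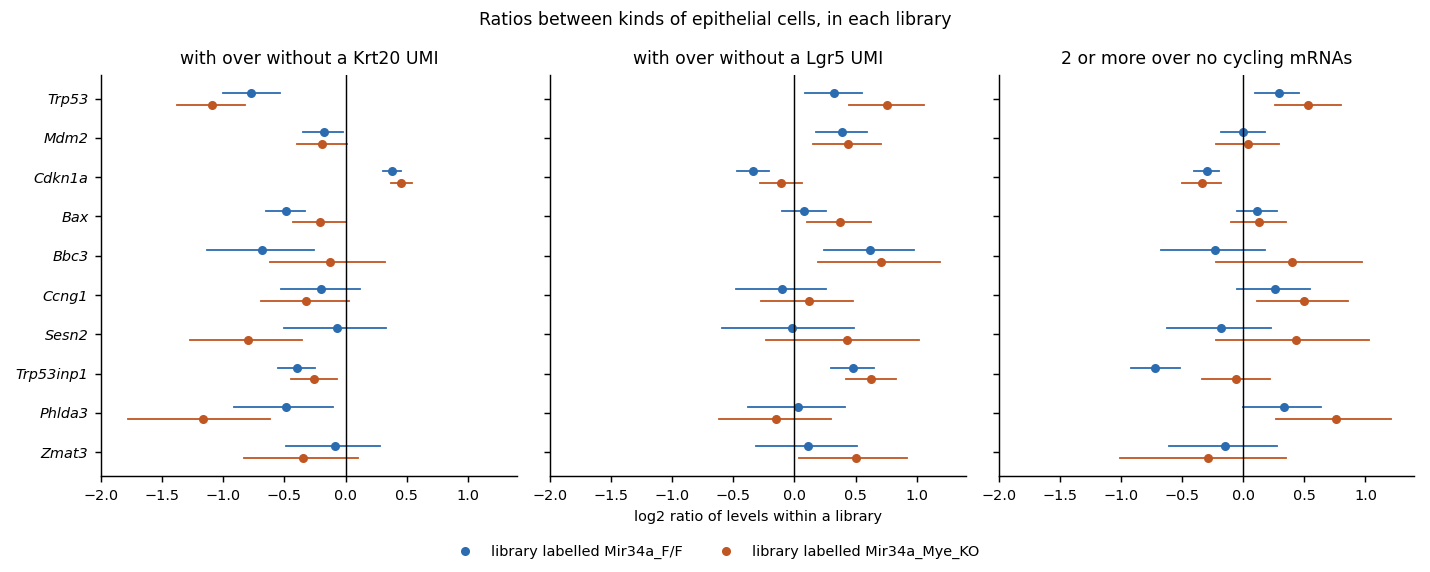
Log2 ratios of the members within each library between epithelial cells with and without Krt20, with and without Lgr5, and with 2 or more against no cycling genes. Points are ratios, bars are 95% counting intervals. Cdkn1a stood above 0 for Krt20 (0.38 and 0.45) and below 0 for cycling cells (-0.30 and -0.34), and Trp53 showed the opposite signs (-0.77 and -1.09, 0.29 and 0.53).

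The 4 smaller cell types held 30 to 116 cells each, and their ratios were wide. Of all genes, 15.3% in endothelial cells to 34.7% in erythroid cells were higher by 1.5 times or more in these types, and 28.4% to 33.8% lower. Trp53inp1 and Cdkn1a each had an interval apart from 0 in 3 of them. Trp53inp1 was higher in the library labelled Mir34a_Mye_KO in fibroblasts, with 19 and 33 UMIs and levels of 0.399 and 0.990 (1.31, 0.09 to 2.52), and in erythroid cells, with 6 and 8 UMIs and levels of 0.151 and 0.746 (2.31, 0.19 to 4.38). It was lower in endothelial cells, with 58 and 21 UMIs and levels of 0.898 and 0.303 (-1.57, -2.68 to -0.48). Free RNA of epithelial cells corresponded to 317% and 77.3% of the Trp53inp1 level in erythroid cells, to 36.9% and 86.2% in endothelial cells and to 73.8% and 25.5% in fibroblasts, so the erythroid levels are not above this background in the library labelled Mir34a_F/F. In fibroblasts the ratio turned to -0.35 when UMIs were summed over cells. Endothelial cells also had less Mdm2, at 0.531 against 1.04 (-0.97, -1.76 to -0.17), and less Cdkn1a, at 1.47 against 2.32 (-0.65, -1.20 to -0.11). In erythroid cells Cdkn1a was lower, at 2.22 in the library labelled Mir34a_F/F and 0.791 in the other, on 48 and 15 UMIs (-1.49, -2.78 to -0.37), where free RNA corresponded to 69.7% and 197% of the level. In basophils Cdkn1a was higher, at 4.07 against 2.72 (0.58, 0.06 to 1.12), the one cell type in which it was.

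As a frame for the members, 45 other genes of the pathway were followed. Of these, 27 to 32 had a level of at least 0.1 in a larger cell type. In epithelial cells (32 genes) and macrophages (30 genes) 0 were past 1.5-fold in either direction. In neutrophils, 2 of 27 were higher and 2 lower. The higher ones were Btg2, an antiproliferative gene, at 7.15 against 3.9 (0.87, 0.78 to 0.96), and Plk3, a stress-responsive kinase, at 1.44 against 0.920 (0.64, 0.46 to 0.83). The lower ones were the death genes Siva1, at 0.0939 against 0.186 (-0.98, -1.52 to -0.44), and Ei24, at 0.122 against 0.186 (-0.60, -1.23 to 0.02). In dendritic cells 4 of 30 were higher and 1 lower, in mast cells 2 of 29 and 4, in T cells 0 of 32 and 3, and in B cells 1 of 30 and 7. Over all genes, 1.51% were higher and 4.49% lower in epithelial cells, 1.83% and 3.81% in macrophages and 5.55% and 13.5% in neutrophils. They were 5.86% and 8.07% in dendritic cells, 4.09% and 16.7% in mast cells, 1.62% and 8.87% in T cells and 4.24% and 27.2% in B cells. Most of these counts, those of neutrophils among them, are near what all genes gave, while the 4 of 30 higher in dendritic cells lie above it. With lists this short, a few genes decide such a count. Beside the members' medians, those of this list were -0.18 in epithelial cells, -0.04 in macrophages, 0.09 in neutrophils, 0.04 in dendritic cells, -0.06 in mast cells, 0.01 in T cells and -0.34 in B cells.

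The genes with the highest levels in each role of this list were Cop1 and Hipk2 among regulators, Btg2 and Gadd45a in the cell cycle, Pmaip1 and Apaf1 in cell death, and Rps27l and Sesn1 in repair and metabolism. Rps27l, a ribosomal protein paralog induced by p53, was higher in 0 of the 7 larger types (-0.45 to -0.00). Btg2 was higher in 6 of 7 (-0.06 to 0.87), with its highest level in neutrophils, where Gadd45a was also highest (1.94 and 2.43). Pmaip1, which encodes the BH3-only protein NOXA, was higher in 1 of 7 (-0.80 to 0.04), and Apaf1, the core of the apoptosome, in 5 of 7 (-0.16 to 0.23). Of all genes, 12.3% were higher in epithelial cells, 20.5% in B cells, 36.7% in mast cells and 37.4% in neutrophils. This share was 40.1% in T cells, 41.1% in macrophages and 50.4% in dendritic cells. How many of all genes are higher in as few or as many types is not given here. Sesn1, the paralog of Sesn2, was lowest in neutrophils (0.143 and 0.0989) and highest in T cells (0.754 and 0.876), whereas Sesn2 was highest in neutrophils.

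The genes most alike to each member were sought among 7050 genes over the 22 profiles of cell type and library, by Pearson's r of log2(level + 0.1). These correlations describe profiles that share libraries, free RNA and depth. Trp53 was most alike to Cand1 and Dhx15 (both 0.89) and H2afv (0.86), Mdm2 to Atp6v1e1 (0.85), Gla (0.84) and Fcgr3 (0.82), and Cdkn1a to Gnb2 (0.84), Aldoa and Card19 (both 0.83). Bax was most alike to Clta (0.90), Psmb4 and Tmem14c (both 0.88), Ccng1 to Nol4l (0.79), Elf4 (0.77) and Baz1a (0.75), and Bbc3 to Vkorc1l1 and Exoc5 (both 0.82) and Cdc5l (0.78). For Trp53inp1 they were Scai (0.85), Lax1 (0.84), an adaptor of lymphocyte signalling, and Ssh2 (0.82), and for Sesn2 Cyb5r4 (0.90), Cux1 and Rprd1b (both 0.81). Phlda3 was most alike to Trim2 (0.89), Nkain2 and Efna5 (both 0.88), and Zmat3 to Senp5 (0.92), Tasor and Desi2 (both 0.91). Bbc3 and Zmat3 themselves lay below a level of 0.5 in every profile and had no UMIs in some.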

How the data were processed

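Single-cell libraries of CACs were compared for the 10 genes. The authors aligned reads to mm10 with Cell Ranger 7.2.0, kept cells with over 200 expressed mRNAs and under 25% mitochondrial content, removed doublets with Scrublet, and deposited natural log values, ln(1 + x), where x is the UMI count scaled to a cell total of 10000, with cell types, which were used as given. Whether introns were counted is not given in the sources used here. In the table (32291 genes, 38883 cells), 12.2% and 22.2% of cells were at 25% or more. Undoing the log gave whole UMI counts (largest deviation 1.5e-10), in total 147109016 and 193133086. Of the barcode sequences, 96 occurred in both libraries.

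Levels, ratios and exact Poisson or binomial intervals at 95% were computed with Python 3.11.15, numpy 2.4.6, scipy 1.17.1 and pandas 2.3.3, with counting intervals of mean levels from the effective number of UMIs, and figures with matplotlib 3.10.9. With 1 library per genotype no test was made. The members and lists were chosen with earlier results of these data known. Named beside them are genes of a fixed pathway list past 1.5-fold at a level of at least 0.1 in epithelial cells, macrophages or neutrophils, the 2 highest per role, and the 3 genes most alike to each member with a level of at least 0.5 in a profile. The B cell split at 20% immunoglobulin and the alternative under 25% mitochondrial UMIs were added after the data were seen. As alternatives, UMIs were summed across the cells of a type, cells were thinned to 1000 UMIs, 411 genes were left out of the totals (those of immunoglobulins, of mitochondria and like ribosomal RNA), or cells were limited to 500 or more expressed mRNAs with a mitochondrial share under 10%. Further ones were a pseudocount of 1, subtraction of the median of all genes or of free RNA, and other filters on the level.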

Additional observations from a re-analysis of the deposited data

Results flagged for a closer look

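Trp53inp1 differed by 1.5 times or more in opposite directions in different cell types, with counting intervals apart from 0. It was higher in the library labelled Mir34a_Mye_KO in B cells (log2 ratio 1.14), in fibroblasts (1.31) and in erythroid cells (2.31), and lower in endothelial cells (-1.57). The difference between these cell types was not tested, since each genotype has 1 library. The B cell value rests on 3348 and 16852 UMIs, those of fibroblasts on 19 and 33, of erythroid cells on 6 and 8, and of endothelial cells on 58 and 21. With B cells at one mix of immunoglobulin classes their value was 0.41, under 1.5-fold. In erythroid cells of the library labelled Mir34a_F/F, free RNA of epithelial cells corresponded to 317% of the level. At smaller size, Cdkn1a and Mdm2 also had intervals on both sides of 0, Cdkn1a above it in basophils (0.58) and Mdm2 in T cells (0.13).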

How the results depend on the processing

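Each log2 ratio with a level of at least 0.1 was recomputed under the alternatives. Of 700 values, 573 lay within the counting interval of the reported value, 121 outside it and 6 had the opposite sign of a value past 1.5-fold, while 603 had the same sign in all. Among these are the 90 values with a pseudocount, which cannot change a sign. The 6 were in small cell types. In fibroblasts, Mdm2 turned to 0.85 with thinning and to 0.13 with cells of at least 500 expressed mRNAs and under 10% mitochondrial UMIs, and Trp53inp1 to -0.35 with UMIs summed over cells. In endothelial cells, summed UMIs gave -0.49 for Ccng1 and -0.38 for Sesn2, and thinning gave 0.07 for Zmat3. The cause was not tested.

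The members' median in epithelial cells (-0.18) was -0.32 with summed UMIs, 0.08 on the reduced totals, 0.04 with cells of at least 500 expressed mRNAs and under 10% mitochondrial UMIs, -0.00 with cells under 25%, -0.04 with a pseudocount, 0.05 with the median of all genes subtracted and -0.36 with a level of at least 0.5. It was 0.16 in macrophages with summed UMIs, 0.16 in T cells with free RNA subtracted, and in B cells 0.32 with the reduced totals and 0.21 with the median subtracted. The count of higher pairs (4) became 7 with thinning, 8 with free RNA subtracted, 2 with B cells at one mix of immunoglobulin classes, 1 with a pseudocount and 2 with a level of at least 0.5. The count of lower pairs (2) became 4 with summed UMIs, 7 with thinning, 1 with reduced totals, 1 at one mix of B cells, 0 with a pseudocount, 1 with the median subtracted and 4 with a filter of 1 UMI in each library. A pseudocount shrinks every ratio, so neither count could rise with it. The shares of all genes moved with the settings too, and those in B cells that were lower (27.2%) became 11.4% with reduced totals, 13.5% at one mix and 1.17% with a pseudocount. Across the larger types, 2.01% to 17.9% were higher and 5.87% to 32.3% lower with thinning, and 3.60% to 23.4% higher with free RNA subtracted, and with the filter of 1 UMI 8.83% to 13.4% of all genes were higher and 21.1% to 39.4% lower. The cell type with the highest level was the same in 96 of 120 values. No paired analysis was possible because each genotype has 1 library, and levels near 0.1 rest on few UMIs in the smaller cell types.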
